A study of Mus musculus with 8 samples.

Results

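The genes described here encode 6 MAP kinase phosphatases (Dusp1, Dusp4, Dusp5, Dusp6, Dusp10 and Dusp16), 2 Sprouty proteins (Spry2 and Spry4) and 2 Sprouty-related proteins (Spred1 and Spred2). They were chosen by symbol as inhibitors that cells make against their own MAP kinase signalling, and all 10 were found among the 24411 gene symbols of the deposited table. Their transcripts were counted by RNA sequencing of plated hepatocytes, harvested on day 2 of culture. The cells came from hepatocyte-specific Taf2 conditional knockout mice (Taf2 cKO, 4 libraries) and from wild-type mice (WT, 4 libraries). Taf2 encodes a subunit of TFIID, the complex that recognises core promoters for RNA polymerase II. The labels name neither the driver and extent of the deletion nor the strain, age and sex of the mice. Nor do they say whether the 4 libraries of a genotype came from separate mice or cultures. The p-values therefore weigh each difference against the spread between these libraries, which may be technical.

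MAP kinases pass signals from growth factor receptors and stress sensors to the nucleus: ERK responds mostly to growth factors, and JNK and p38 mostly to stress. MAP kinase phosphatases remove the activating phosphates from these kinases, and each has its own preference and place in the cell. Sprouty and Spred proteins act further up, between receptor tyrosine kinases and RAF. Several of these genes are themselves switched on by MAP kinase activity, which closes a negative feedback loop, and in plated hepatocytes ERK responds to mitogens such as EGF and HGF.

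Totals ran from 20287023 to 23933589 estimated counts per Taf2 cKO library and from 18947059 to 22824568 per WT library. Taf2 had 269 to 329 counts in the Taf2 cKO libraries and 865 to 979 in the WT libraries, so every library matched its label. Hepatocyte markers dominated: 9 of 10 were found, of which 4 were higher in the knockout, 3 were lower (Apoa1, Apob and Cps1) and 2 were not called. They summed to between 73223 and 80464 CPM (counts scaled to a common library size) in Taf2 cKO libraries and to between 58175 and 63249 CPM in WT libraries, and without Alb, the albumin gene, to between 20145 and 21037 CPM in Taf2 cKO and to between 21915 and 23147 CPM in WT. Markers of other liver cells also differed. All 10 macrophage markers were higher in the knockout, with sums of 232 to 261 CPM in Taf2 cKO libraries and 86.2 to 115 CPM in WT libraries. All 7 tested endothelial markers of 8 were higher too (116 to 123 CPM in Taf2 cKO and 42.3 to 48.3 CPM in WT), as were 7 of 8 stellate cell or fibroblast markers (138 to 152 CPM in Taf2 cKO and 65.3 to 69.6 CPM in WT). Of these markers Adgre1, Ptprc, Lrat, Pdgfrb and Col1a1 passed the filter on low counts only through the Taf2 cKO libraries. With these included, the median log2 fold change was 2.58 for macrophage, 1.71 for endothelial and 2.1 for stellate cell or fibroblast markers. Cd68 (means of 172 CPM in Taf2 cKO and 84.1 CPM in WT) made up most of the macrophage sums. Reln (102 CPM in Taf2 cKO and 61.7 CPM in WT) made up most of the stellate cell or fibroblast sums. Of 6 cholangiocyte markers 4 were tested, of which 2 were higher and 2 lower (153 to 181 CPM in Taf2 cKO and 116 to 129 CPM in WT). Krt7, called lower, passed the filter on low counts only through the WT libraries, where it was higher. Cftr had 1 count over all Taf2 cKO libraries and 0 over the WT libraries. Every gene below is also expressed outside hepatocytes, and in such bulk samples a change in cell numbers and a change in RNA per cell cannot be told apart. The part of these other cells in the results was not tested.

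The sequences just before the annotated starts of Dusp1 and Dusp5, inducible genes that were higher in Taf2 cKO, are shown. They were picked because both hold an element that the other members searched lack. The 250 bases upstream of the start come from RefSeq (build GRCm38.p6, the assembly of mm10). Sequences of 8 of the 10 members were used, and Dusp4 and Spry4 were not searched. Dusp16, the member that fell, is shown for contrast, from a start that lies inside its annotated gene. Capitals mark matches to the motifs named next, and the strand given is that of the gene.
Dusp1, chr17:26508473-26508722, minus strand: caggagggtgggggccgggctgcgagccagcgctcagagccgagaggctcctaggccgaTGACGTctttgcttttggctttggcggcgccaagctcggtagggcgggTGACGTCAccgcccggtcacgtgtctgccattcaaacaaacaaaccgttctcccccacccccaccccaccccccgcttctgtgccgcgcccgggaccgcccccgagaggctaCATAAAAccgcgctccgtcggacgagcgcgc
Dusp5, chr19:53528895-53529144, plus strand: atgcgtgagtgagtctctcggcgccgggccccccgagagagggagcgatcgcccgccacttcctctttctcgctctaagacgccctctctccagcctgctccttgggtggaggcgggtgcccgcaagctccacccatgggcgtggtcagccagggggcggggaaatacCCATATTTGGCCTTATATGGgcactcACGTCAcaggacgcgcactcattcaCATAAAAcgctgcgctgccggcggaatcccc
Dusp16, chr6:134792629-134792878, minus strand: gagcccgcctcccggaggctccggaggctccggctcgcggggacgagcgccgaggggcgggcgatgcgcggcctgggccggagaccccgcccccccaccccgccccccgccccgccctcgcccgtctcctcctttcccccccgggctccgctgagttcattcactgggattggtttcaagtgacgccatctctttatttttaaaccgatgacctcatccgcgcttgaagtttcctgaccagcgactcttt

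Motifs were searched on both strands of these windows: the full cyclic AMP response element (CRE, TGACGTCA), its core (TGACGT), an AP-1 site (TGANTCA), the TATA box (TATAAA), an ETS site (CCGGAAGT), and the CArG box, which serum response factor binds. The variant CATAAAA was added after the sequences had been read. Dusp1 held a full CRE that started 143 bases before the transcript start and a further core at 191 bases, and the full element contains the core on each strand. Dusp5 held 2 CArG boxes next to each other, at 82 and 72 bases before the start, and a CRE core at 56 bases. Both genes held CATAAAA at the same distance, 31 bases before the start, and neither held TATAAA. Among the searched promoters of tested genes 2.61% held a full CRE, 9.94% a CRE core, 1.26% a CArG box and 1.71% CATAAAA or its complement. Over the 32851 promoters searched these shares were 1.55%, 6.47%, 1.47% and 3.77%. Spred2 held a CRE core at 52 bases, and the windows of Dusp6, Dusp10, Dusp16, Spry2 and Spred1 held none of the motifs. TATAAA, the AP-1 site and the ETS site were in none of the 8 windows, against 6.82%, 4.73% and 5.83% of the searched promoters of tested genes. A match says only that these letters are there.

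**Figure D1:**
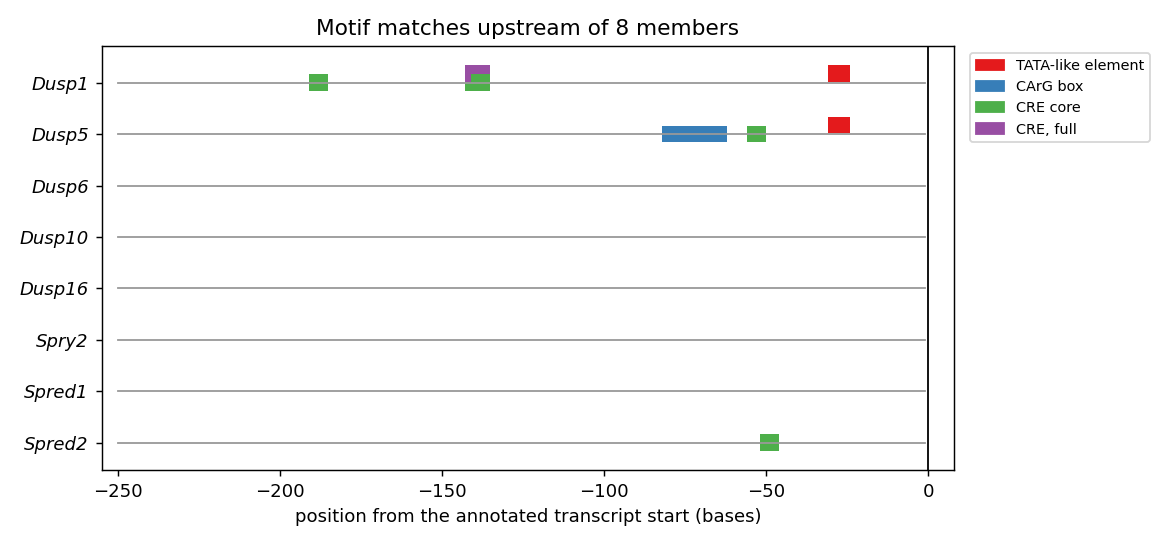
Matches to the searched motifs (coloured boxes) in the 250 bases before the annotated start of 8 members, with the distance from the start in bases on the x axis. Dusp1 and Dusp5 each hold the element CATAAAA at 31 bases, 5 of the 8 windows hold no match, and the full CRE of Dusp1 is drawn above the cores it contains.

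The comparison addressed which transcripts differ between the Taf2 cKO and WT libraries. Taf2 transcript was reduced but not absent, at 12.7 to 15.7 CPM in Taf2 cKO libraries and 42.2 to 46.4 CPM in WT libraries. Of the 10 members 6 were higher in Taf2 cKO libraries (Dusp1, Dusp4, Dusp5, Dusp6, Dusp10 and Spry2), 1 was lower (Dusp16) and 3 were not called (Spry4, Spred1 and Spred2), at an edgeR adjusted p under 0.05. Among all 12122 genes tested 61.4% were called, 30.2% as higher and 31.2% as lower, so 7 calls among 10 members is near the background. The genotypes did not overlap in CPM for 7 members, and for 54.7% of all genes tested. The median log2 fold change was 0.16 over the members and -0.0035 over all genes, and the median absolute change was 0.25 over the members and 0.22 over all genes. These counts include Spry2, which passed the filter on low counts only through the Taf2 cKO libraries, where it was higher. No conclusion is drawn from its call, which is set apart below.

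**Figure D2:**
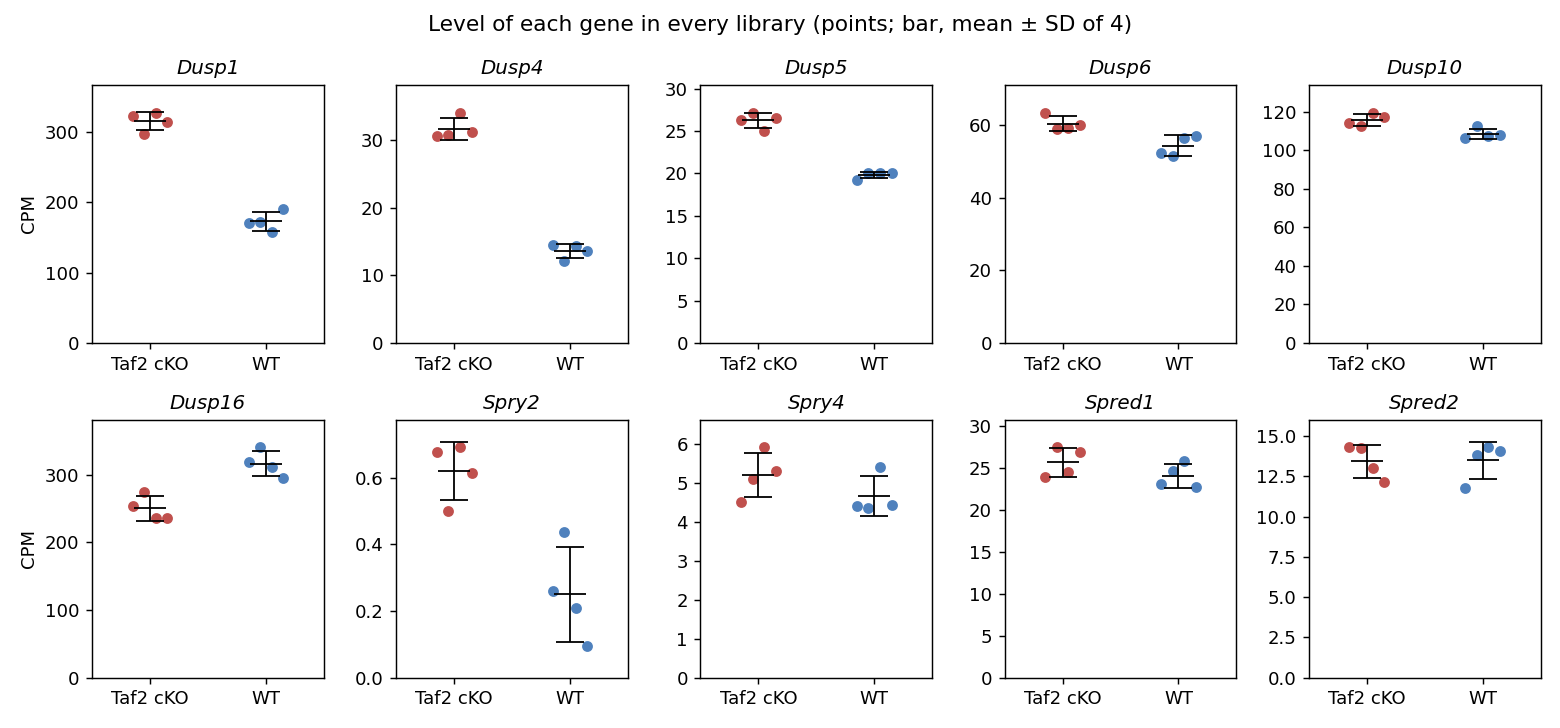
CPM of each of the 10 members (y axis, from 0, with its own scale per gene) in the 4 Taf2 cKO libraries (left) and the 4 WT libraries (right); bars give the mean ± SD. The genotypes are apart for Dusp1, Dusp4 and Dusp5, close but not overlapping for Dusp6 and Dusp10, and overlapping for Spry4, Spred1 and Spred2.

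The inducible nuclear phosphatases Dusp1, Dusp4 and Dusp5 all rose. Dusp1, which prefers p38 and JNK and lies on chromosome 17 from 26505591 to 26508472, had 323, 298, 328 and 315 CPM in the Taf2 cKO libraries, against 170.1, 172, 158 and 190.4 CPM in the WT libraries. The lowest Taf2 cKO library stood far above the highest WT library. The mean was 316 ± 13.1 CPM in Taf2 cKO and 173 ± 13.2 CPM in WT (SD, n = 4 each; 1.83-fold; change on the log2 scale 0.87 with an SE of 0.047; edgeR adjusted p = 3.08e-12). This change exceeded that of 88.3% of the genes tested.

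Dusp4, a nuclear phosphatase for ERK and JNK on chromosome 8 (34807610 to 34819894), had 30.6, 30.8, 34.1 and 31.3 CPM in the Taf2 cKO libraries, against 14.4, 12.2, 14.3 and 13.6 CPM in the WT libraries. It rose 2.32-fold, the widest fold among the phosphatases (31.7 ± 1.63 CPM in Taf2 cKO and 13.6 ± 1.03 CPM in WT; SD, n = 4 each; change on the log2 scale 1.22 with an SE of 0.064; edgeR adjusted p = 1.8e-12). Dusp5, a nuclear phosphatase selective for ERK, on chromosome 19 from 53529145 to 53541809, had 26.3, 27.2, 25.03 and 26.6 CPM in the Taf2 cKO libraries, against 19.2, 20.03, 19.99 and 20.01 CPM in the WT libraries. All 4 Taf2 cKO values lay above all 4 WT values, and the rise was 1.33-fold (26.3 ± 0.906 CPM in Taf2 cKO and 19.8 ± 0.394 CPM in WT; SD, n = 4 each; change on the log2 scale 0.41 with an SE of 0.054; edgeR adjusted p = 1.65e-06).

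Dusp6, the cytoplasmic and ERK-specific phosphatase whose transcript is often used as a readout of ERK activity, changed little. It had 63.5, 59.01, 59.2 and 60.2 CPM in the Taf2 cKO libraries, against 52.4, 51.6, 56.5 and 57.02 CPM in the WT libraries. The highest WT library was within 2 CPM of the lowest Taf2 cKO library, and the rise was 1.11-fold (60.5 ± 2.07 CPM in Taf2 cKO and 54.4 ± 2.80 CPM in WT; SD, n = 4 each; change on the log2 scale 0.15 with an SE of 0.042; edgeR adjusted p = 0.00348). A change smaller than this was found in 38.5% of the genes tested. Dusp6 lies on chromosome 10 from 99263231 to 99267489, where RefSeq also places Gm34921, and reads of overlapping genes may be counted together because the sources used here state no strand setting.

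The phosphatases that act on JNK and p38 went different ways. Dusp10, on chromosome 1 from 184034381 to 184075636, had 114, 113, 119.6 and 117 CPM in the Taf2 cKO libraries, against 107, 112.5, 107 and 108 CPM in the WT libraries. WT replicate 2 nearly reached the lowest Taf2 cKO library, and the difference was small (116 ± 3.17 CPM in Taf2 cKO and 109 ± 2.68 CPM in WT; SD, n = 4 each; change on the log2 scale 0.094 with an SE of 0.035; edgeR adjusted p = 0.0265). The call ended without a low-count filter (edgeR adjusted p = 0.0652), without Taf2 cKO replicate 3 (0.0662), and without WT replicate 1 (0.0766), 3 (0.0716) or 4 (0.0587), in a range from 0.00679 to 0.0766 over its 16 alternatives. Dusp16, on chromosome 6 from 134715468 to 134807063, had 254, 275, 237 and 236 CPM in the Taf2 cKO libraries, against 319, 341, 312 and 295 CPM in the WT libraries. It was the member that fell, to 250.4 ± 18.2 CPM in Taf2 cKO, against 317 ± 18.997 CPM in WT (SD, n = 4 each; 0.790-fold; change on the log2 scale -0.34 with an SE of 0.049; edgeR adjusted p = 5.26e-06). RefSeq places Gm36328 and 1700055D16Rik within its span.

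Among the Sprouty and Spred genes Spry2 was called higher, on few counts, and Spry4, Spred1 and Spred2 were not called. Spry2, an inhibitor of receptor signalling to RAS and RAF, on chromosome 14 from 105891947 to 105896819, had 16, 10, 16 and 13 counts in the Taf2 cKO libraries, against 6, 9, 4 and 2 counts in the WT libraries. The genotypes differed by as little as 1 count between single libraries. The fit gave a log2 fold change of 1.30 with a 95% interval from 0.53 to 2.08 (0.621 ± 0.0874 CPM in Taf2 cKO and 0.250 ± 0.143 CPM in WT; SD, n = 4 each; edgeR adjusted p = 0.00464). In all, 76 counts over 8 libraries lie behind this value, and with a filter of 1 CPM in 4 libraries Spry2 was not tested at all.

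Spry4, a relative of Spry2 with a like action, had 4.53, 5.10, 5.92 and 5.31 CPM in the Taf2 cKO libraries, against 4.43, 4.37, 5.43 and 4.45 CPM in the WT libraries. The genotypes overlapped, and the difference was not called (log2 fold change 0.16, 95% interval from -0.070 to 0.40; edgeR adjusted p = 0.214). Spred1, which with Spred2 brings the RAS inhibitor neurofibromin to the membrane, had 23.9, 27.4, 24.5 and 26.9 CPM in the Taf2 cKO libraries, against 23.1, 24.6, 25.8 and 22.7 CPM in the WT libraries (log2 fold change 0.093, 95% interval from -0.034 to 0.22; edgeR adjusted p = 0.196). Spred2 had 14.3, 14.2, 13.01 and 12.2 CPM in the Taf2 cKO libraries, against 11.8, 13.9, 14.3 and 14.1 CPM in the WT libraries (log2 fold change -0.0026, 95% interval from -0.16 to 0.16; edgeR adjusted p = 0.98). The values of both Spred genes overlapped between the genotypes, and the intervals leave room for changes of about the size seen in Dusp6 or Dusp10.

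**Figure D3:**
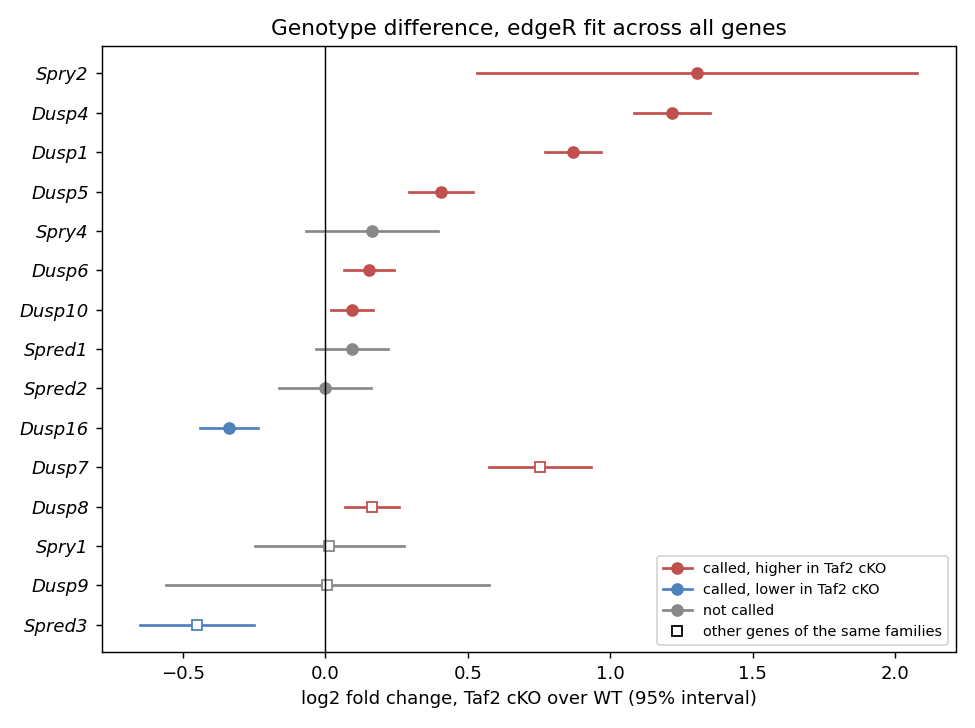
Log2 fold change of Taf2 cKO over WT (x axis) with its 95% interval for the 10 members (filled circles) and 5 other tested genes of the same families (open squares), red where called higher, blue where called lower and grey where not called. Dusp4 and Dusp1 lie at 1.22 and 0.87 with narrow intervals, Spry2 at 1.30 with a wide one, and Dusp16 at -0.34.

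Set side by side per kilobase of transcript, Dusp1 had the highest level in both genotypes (159 ± 6.56 CPM per kilobase in Taf2 cKO and 86.8 ± 6.65 in WT; SD, n = 4 each). Dusp16 (49.1 in Taf2 cKO and 62.1 in WT), Dusp10 (41.5 in Taf2 cKO and 38.9 in WT) and Dusp6 (21.6 in Taf2 cKO and 19.5 in WT) followed in that order in both genotypes, with no overlap between neighbours. Dusp4 stood above Dusp5 in Taf2 cKO libraries (11.6 ± 0.594 against 10.6 ± 0.366 CPM per kilobase), and below it in WT libraries (4.98 ± 0.375 against 8.01 ± 0.159), without overlap in either. In WT libraries Dusp4 overlapped with Spred2 (4.73 ± 0.411), and Spred2 overlapped with Spred1 in both genotypes. Spry4 (1.10 in Taf2 cKO and 0.982 in WT) and Spry2 (0.298 in Taf2 cKO and 0.120 in WT) were lowest.

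The relative abundance of the 6 phosphatases is given as a description. Dusp1 made up 52.1% to 55.3% of the summed CPM per kilobase of the 6 phosphatases in Taf2 cKO libraries and 37.4% to 42.4% in WT libraries. Dusp16 made up 15.6% to 18.8% in Taf2 cKO libraries and 25.6% to 29.8% in WT libraries, and Dusp10 made up 13.8% to 14.5% in Taf2 cKO and 17.1% to 18.1% in WT. The share of Dusp4 was 3.95% ± 0.176 in Taf2 cKO and 2.26% ± 0.218 in WT (SD, n = 4 each), while that of Dusp5 overlapped (3.40% to 3.83% in Taf2 cKO and 3.57% to 3.80% in WT). The sum itself ran from 287.1 to 297.5 CPM per kilobase in Taf2 cKO libraries and from 212.8 to 225.5 in WT libraries. The 4 Sprouty and Spred genes together came to between 10.1 and 10.9 CPM per kilobase in Taf2 cKO libraries and to between 9.01 and 10.6 in WT libraries, which overlap.

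**Figure D4:**
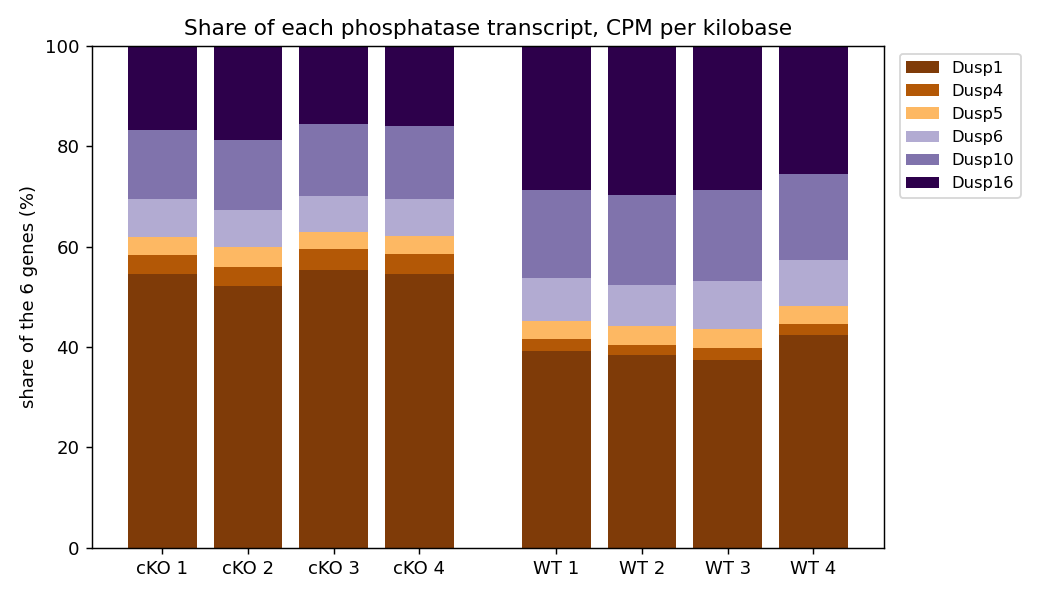
Share (y axis, percent) of each of the 6 phosphatases in their summed CPM per kilobase, per library, with the 4 Taf2 cKO libraries on the left and the 4 WT libraries on the right. Dusp1 takes 52.1% to 55.3% of each Taf2 cKO bar and 37.4% to 42.4% of each WT bar, and the part of Dusp16 is smaller in Taf2 cKO.

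Whether members differed from each other in their response was tested on the log2 ratio of counts within each library, which does not depend on scaling, in 6 pairs with exact two-sided permutation tests. The ratio of Dusp1 to Dusp6 was 2.38 ± 0.0602 in Taf2 cKO and 1.67 ± 0.121 in WT (log2 scale, SD, n = 4 each; exact permutation p = 0.0286, the smallest that 4 against 4 allows). Dusp4 to Dusp5 was 0.27 ± 0.119 in Taf2 cKO and -0.54 ± 0.130 in WT, and Dusp10 to Dusp16 was -1.11 ± 0.140 in Taf2 cKO and -1.54 ± 0.0669 in WT, both at the same exact p and without overlap. Adjusted over the 6 pairs these exact p-values became 0.0571, so no pair passed 0.05. All 8 libraries sorted by genotype in these 3 pairs. The CPM of each gene in these pairs did so by itself, as did that of 54.7% of all genes tested, so this adds no support. Spry2 to Spry4 was -3.03 ± 0.241 in Taf2 cKO and -4.26 ± 0.849 in WT (exact p = 0.0571, adjusted 0.0857) and overlapped in WT replicate 2. That ratio rests on 2 to 9 counts of Spry2 per WT library, and the difference of 1.23 became 0.69 with 5 rather than 0.5 added to each count. Since Spry2 passed the filter on low counts only through the Taf2 cKO libraries, no conclusion is drawn from this pair. Spred1 to Spred2 was 0.93 ± 0.164 in Taf2 cKO and 0.84 ± 0.115 in WT (exact p = 0.371, adjusted 0.446), and Spry4 to Dusp6 was -3.54 ± 0.201 in Taf2 cKO and -3.54 ± 0.123 in WT (exact p = 1).

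**Figure D5:**
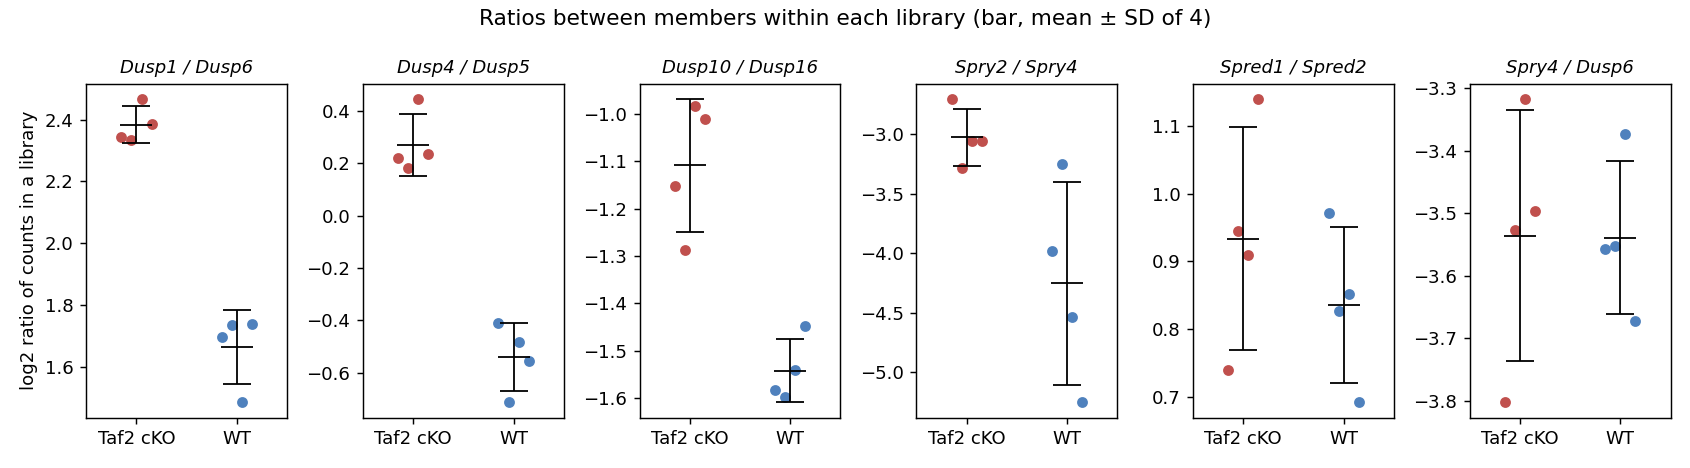
Log2 ratio of the counts of 2 members within each library (y axis, with its own scale per panel) for 6 pairs, in Taf2 cKO (left) and WT (right) libraries; bars give the mean ± SD. The ratios of Dusp1 to Dusp6, Dusp4 to Dusp5 and Dusp10 to Dusp16 are higher in all 4 Taf2 cKO libraries than in any WT library, and those of Spred1 to Spred2 and Spry4 to Dusp6 overlap.

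Other genes of the same families were mixed. Of 5 tested 2 were higher, 1 was lower and 2 were not called (median log2 fold change 0.013). For this and the next list, 30.2% of all genes tested were called higher and 31.2% lower. Dusp7, a cytoplasmic relative of Dusp6, rose to 10.6 ± 0.947 CPM in Taf2 cKO, against 6.29 ± 0.352 CPM in WT (SD, n = 4 each; change on the log2 scale 0.75 with an SE of 0.086; edgeR adjusted p = 2.33e-07), and Dusp8, which acts on JNK and p38, rose by 0.16 (SE 0.046). Spred3 fell to 4.94 ± 0.301 CPM in Taf2 cKO, against 6.74 ± 0.544 CPM in WT. Spry1 stood at 4.24 ± 0.385 CPM in Taf2 cKO and 4.22 ± 0.681 CPM in WT, and Dusp9 at 0.737 ± 0.178 CPM in Taf2 cKO and 0.727 ± 0.185 CPM in WT. Dusp2 was below the filter, and Spry3 matched no symbol. Among 9 tested dual-specificity phosphatases without the motif that docks MAP kinases, 2 were higher and 5 lower (median -0.24). Dusp12, Dusp18 and Dusp23 had the largest falls (log2 fold changes -0.65, -0.57 and -0.46), and Dusp11 and Dusp22 rose by 0.25 and 0.12.

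Further transcripts known to follow ERK activity were called higher in 8 of 12 tested cases and lower in 3 (median log2 fold change 0.27), where 30.2% of all genes were called higher and 31.2% lower. Of these 12, Egr2 passed the filter on low counts only through the Taf2 cKO libraries and Epha4 only through the WT libraries, the genotype where each is higher. The zinc-finger factor gene Egr2 stood at 2.79 ± 0.325 CPM in Taf2 cKO and 0.535 ± 0.203 CPM in WT (246 counts in Taf2 cKO and 44 in WT), and Egr1 rose to 101 ± 1.29 CPM in Taf2 cKO, against 65.2 ± 5.997 CPM in WT. Ccnd1, which encodes cyclin D1, rose to 12.8 ± 1.60 CPM in Taf2 cKO, against 6.67 ± 0.486 CPM in WT. The ephrin receptor gene Epha4 stood at 0.127 ± 0.0292 CPM in Taf2 cKO and 1.10 ± 0.350 CPM in WT (11 counts in Taf2 cKO and 93 in WT). Its relative Epha2 fell by 0.10 on the log2 scale (SE 0.034), and the ETS factor gene Etv5 fell by 0.28 (SE 0.098). The genotypes overlapped for Etv5 (5.15 to 6.09 CPM in Taf2 cKO and 5.98 to 7.62 CPM in WT). Etv4, another ETS factor that responds to ERK, was at 5.95 ± 0.625 CPM in Taf2 cKO and 5.58 ± 0.655 CPM in WT (edgeR adjusted p = 0.533). Other receptor and ERK feedback genes were called in 4 of 10 tested cases, Cish and Cblb as higher (log2 fold changes 0.63 and 0.19) and Socs2 and Cbl as lower (-0.22 and -0.21). Cish and Socs2 restrain cytokine receptors, and Cbl and Cblb are ubiquitin ligases that mark active receptors for removal. Errfi1, an inhibitor of the EGF receptor, stood at 1146 ± 20.4 CPM in Taf2 cKO and 1124 ± 38.8 CPM in WT (edgeR adjusted p = 0.512).

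The kinases that the phosphatases act on, and the cascades above them, changed in both directions. Of 21 genes from receptor adaptors to ERK 11 fell, 5 rose and 5 were not called (median log2 fold change -0.12). Among all genes tested 31.2% were called lower and 30.2% higher. The adaptor gene Gab1 fell by 0.76 on the log2 scale (SE 0.065), and Hras, which encodes a RAS protein, by 0.37 (SE 0.043), whereas Map2k1, which activates ERK, rose by 0.36 (SE 0.035) and Rasa2, which turns RAS off, by 0.21 (SE 0.059). Ksr1, a scaffold, was called higher (log2 fold change 0.93, SE 0.27) on 98 counts in Taf2 cKO and 49 in WT, and passed the filter on low counts only through the Taf2 cKO libraries. Mapk3, which encodes an ERK, stood at 81.7 ± 2.07 CPM in Taf2 cKO and 77.4 ± 3.52 CPM in WT (edgeR adjusted p = 0.0893). Of 16 tested genes of the JNK and p38 cascades 7 fell and 5 rose (median -0.071). Map2k6, a p38 kinase, rose by 1.69 on the log2 scale (SE 0.20) and Map3k1 by 1.08 (SE 0.056), while Mapk11, a p38 isoform, Map2k7, a JNK kinase, and Map3k5, a stress-activated kinase above both, had log2 fold changes of -0.52, -0.31 and -0.26. Mapk12, another p38 isoform, was called higher (log2 fold change 1.26, SE 0.40) on 56 counts in Taf2 cKO and 22 in WT, and its genotypes overlapped.

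Likeness of pattern was measured as Pearson's r of log2 CPM over the 8 libraries, among 9453 other genes that averaged 5 CPM or more. It is a description, since the libraries share a genotype difference that most genes carry. Nearest to Dusp16, the phosphatase with the highest mean CPM over all 8 libraries (Dusp1 was higher in Taf2 cKO), were, among others, Slmap (r = 0.986) and Glyctk (0.986), and 121 genes had an r over 0.95. Nearest to Spred1, the most abundant Sprouty or Spred member by CPM, were Haus6 (r = 0.971), Rnf24 (0.959) and Atxn3 (0.945), and 2 genes had an r over 0.95.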

How the data were processed

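RNA was sequenced in 8 libraries, and the authors deposited expected counts per gene, for which the submitters' processing notes name RSEM and build mm10. The sources used here state no version, aligner or strand setting. A further 8 columns of the table match no sample and were not used. Expected counts were rounded (2.85% of the values were not whole, and none of the members' values). The filterByExpr step of edgeR, at a count of 10 and a total of 15, left 12122 genes. After TMM scaling, the quasi-likelihood test of edgeR was run over all of them, with Benjamini-Hochberg adjustment and a threshold of 0.05. CPM uses TMM-scaled library sizes. SE was derived from the size of the change and its F statistic, and intervals are 95%. Levels per kilobase use the longest GENCODE transcript matched to the table's RefSeq transcripts. Pair ratios add 0.5 to each count.

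Versions were DESeq2 1.42.0, limma 3.58.1 and edgeR 4.0.16, run in R 4.3.3. The fit was first tested on simulated data with known changes. Within each genotype, libraries varied beyond sampling noise (chi-square per degree of freedom 3.18 to 8.62). All members, and up to 3 called genes per direction with the largest changes in each other list, are named, with Mapk3; some results under this rule are not reported here. Others named (Dusp9, Spry1, Errfi1, Etv4) were chosen after their values were seen. The members and lists were chosen with earlier results of these data known. Alternatives were other scalings (RLE, upper quartile), DESeq2, limma-voom, other low-count filters, a replicate block, thinning to the smallest total and leaving out each library.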

Additional observations from a re-analysis of the deposited data

Results flagged for a closer look

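Dixon's ratio divides the gap between a library and its nearest other by the range of the 4. Of 20 groups of 4 libraries, 2 held a library whose ratio exceeded the 95% critical value, where chance flags about 1 in 20. Dusp5 in WT replicate 1 was at 19.2 CPM, against 19.99 to 20.03 CPM in the other WT libraries, and Spry4 in WT replicate 3 was at 5.43 CPM, against 4.37 to 4.45 CPM in the others.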

How the results depend on the processing

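Of the 10 members 7 were called with RLE or upper-quartile scaling, DESeq2, limma-voom, a replicate block and thinning, and 6 without a low-count filter, with the stricter filter of 1 CPM in 4 libraries (which leaves out Spry2), and without Taf2 cKO replicate 3 or WT replicate 1, 3 or 4 (which end the call of Dusp10). In the main fit 7447 of all 12122 genes tested were called, and with DESeq2 6890 of 12122. Without a low-count filter 8004 of 16533 were called, and with the stricter filter 7065 of 11392. The other alternatives called 7027 to 7459 genes, of 11992 to 12237 tested. The counts of members are to be read beside this background, and no conclusion is drawn from them. No direction of a called member reversed. The labels do not say whether replicate numbers pair the libraries. Deviations of same-numbered libraries correlated at -0.158 to 0.0223, and 0 of 4 Taf2 cKO libraries correlated best with their own number. This cannot exclude a pairing that has little effect on transcripts. With the replicate block 7437 genes were called, against 7447, and it changed no member's call. The ratio of Spry4 to Dusp6 differed by 0.0031 between genotypes, by -0.0049 with 5 added to each count, and by -0.070 to 0.092 without single libraries; the cause was not tested. That of Spred1 to Spred2 differed by 0.098, and by 0.029 without Taf2 cKO replicate 4 to 0.16 without Taf2 cKO replicate 1. For Spry2 the log2 fold change ran from 1.03 without WT replicate 4 to 1.70 without WT replicate 2, and its low counts limit its precision.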
